A study of Mus musculus with 2 samples.

Results

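The fibrillar collagens followed here were the 7 genes Col1a1, Col1a2, Col3a1, Col5a1, Col5a2, Col5a3 and Col11a1, taken by symbol from the 55357 genes listed in the deposited count tables. Single cells of mouse heart had been sequenced with droplet barcoding (10X Chromium), in which a unique molecular identifier (UMI) marks each captured mRNA molecule, so that UMIs count molecules. The Sham library came from C57BL/6 mice that had the operation without the constriction, although the design text of the series calls these mice uninjured. The TAC library came from C57BL/6 mice whose aortic arch had been narrowed by ligation (transverse aortic constriction, a model of pressure overload). By the labels of the TAC library, these were male mice operated at 8 weeks of age and kept for 6 weeks. Each library pooled the cells of 3 to 5 hearts, no genetic change was named for either, and there was 1 library per condition. No difference between the libraries therefore has a replicate check, no test was made, and the 95% intervals given in parentheses cover counting error only. What TAC did and what the separate preparations did cannot be told apart.

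Fibrillar collagens are the rod-like proteins that assemble into the collagen fibrils of the extracellular matrix. Their chains wind into a triple helix, which is modified and folded in the cell, trimmed of its propeptides outside it and cross-linked in the fibril. Type I and type III collagen form most of the interstitial fibrils of the heart, type V collagen helps to start fibrils and to set their thickness, and type XI collagen is best known from cartilage. Cardiac fibroblasts are regarded as the main source of these proteins, and the genes are widely used as readouts of fibrosis.

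All 7 genes are protein coding, and their positions were taken from the GENCODE M21 annotation of GRCm38. Col1a1 (chr11:94936224-94953042, plus strand) and Col1a2 (chr6:4504814-4541544, plus strand) encode the chains of type I collagen. Col3a1 (chr1:45311538-45349706, plus strand) encodes the chain of type III collagen. Col5a1 (chr2:27886425-28039514, plus strand), Col5a2 (chr1:45374321-45503282, minus strand) and Col5a3 (chr9:20770050-20815067, minus strand) encode the chains of type V collagen. Col11a1 (chr3:114030540-114220718, plus strand) encodes a chain of type XI collagen. Col3a1 and Col5a2 point toward each other on chromosome 1, with 24614 bp between their ends. Of the annotated genes that overlap a member on its own strand, Gm38211 at Col5a2 had 935 UMIs over both libraries and Gm43921 at Col1a2 had 209, so reads could have been divided between them and the collagen gene.

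The promoters of 4 members are shown. These are 1 chain gene each of type I and type III collagen and both type V chain genes that had a window. Of the members, Col5a3 alone had a higher level in pericytes than in fibroblasts, in both libraries. RefSeq promoter windows of GRCm38.p6 were given for 5 of the 7 genes, from 250 bases before to 50 bases after the start of transcription. Capitals mark the matches found on either strand. The letters searched were CCAAT for the box of that name, GGGCGG for a GC box and, for the box that binds the TATA-binding protein, TATAAA. The windows lie at chr1:45311288-45311587 for Col3a1, chr6:4505368-4505667 for Col1a2 and chr2:27886175-27886474 for Col5a1, all on the plus strand, and at chr9:20815018-20815317 on the minus strand for Col5a3.
Col3a1: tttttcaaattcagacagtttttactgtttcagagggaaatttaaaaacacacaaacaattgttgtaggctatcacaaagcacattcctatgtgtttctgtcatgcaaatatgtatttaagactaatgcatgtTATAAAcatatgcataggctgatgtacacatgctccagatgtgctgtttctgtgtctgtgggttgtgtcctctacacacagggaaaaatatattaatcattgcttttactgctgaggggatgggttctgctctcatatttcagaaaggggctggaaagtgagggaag
Col1a2: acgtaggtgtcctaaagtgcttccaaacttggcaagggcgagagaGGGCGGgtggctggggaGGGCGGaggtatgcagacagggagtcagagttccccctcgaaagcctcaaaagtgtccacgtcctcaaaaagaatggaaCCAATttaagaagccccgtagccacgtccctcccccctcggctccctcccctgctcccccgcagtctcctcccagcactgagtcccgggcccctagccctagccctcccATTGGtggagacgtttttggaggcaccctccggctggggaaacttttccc
Col5a1: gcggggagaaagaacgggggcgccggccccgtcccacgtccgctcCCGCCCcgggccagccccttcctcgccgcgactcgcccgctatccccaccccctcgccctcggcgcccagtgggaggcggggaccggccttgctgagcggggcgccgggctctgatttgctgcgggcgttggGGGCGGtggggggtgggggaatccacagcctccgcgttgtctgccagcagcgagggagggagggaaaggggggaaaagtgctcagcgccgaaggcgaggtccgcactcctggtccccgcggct
Col5a3: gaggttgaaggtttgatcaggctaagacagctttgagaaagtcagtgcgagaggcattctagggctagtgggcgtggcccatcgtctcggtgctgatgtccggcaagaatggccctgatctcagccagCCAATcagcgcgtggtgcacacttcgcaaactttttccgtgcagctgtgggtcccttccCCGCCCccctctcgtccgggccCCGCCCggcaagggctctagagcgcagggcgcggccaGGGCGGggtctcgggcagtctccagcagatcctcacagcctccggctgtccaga
The Col3a1 window held 1 TATAAA match and none of the other letters, with a GC content of 37.7%. The Col1a2 window held 2 CCAAT and 2 GGGCGG matches, the Col5a1 window 2 GGGCGG matches, and the Col5a3 window 1 CCAAT and 3 GGGCGG matches. Their GC content was 61%, 75% and 63.3%. The Col11a1 window, which is not printed, held 1 CCAAT and 2 GGGCGG matches. Of 32851 promoter windows of the same length, 37.4% held CCAAT, 35.7% GGGCGG and 13.6% TATAAA. A match describes the letters and is not evidence of a bound factor.

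The count tables listed 9935 barcodes for Sham and 9932 for TAC, with totals of 28146691 and 29108986 UMIs and medians of 1964 and 2143 per barcode. The libraries shared 32 barcode sequences. After removal of barcodes called as doublets, 9475 Sham and 9452 TAC cells remained, which were clustered without the collagens and named from marker genes. Fibroblasts were 2311 Sham and 2120 TAC cells with 6 and 7 of 8 markers, among them Pdgfra, Dcn and Dpt. Pericytes were 1067 and 1043 cells, smooth muscle cells 45 and 43, endothelial cells 1917 and 2278, lymphatic endothelial cells 83 and 110, epicardial or mesothelial cells 17 and 25, macrophages 1447 and 1349, and cardiomyocytes 2513 and 2400. Of 5 cardiomyocyte genes known to rise under pressure overload, Myh7 had a TAC to Sham ratio of 1.35 (1.32 to 1.39), Ankrd1 of 0.998 (0.957 to 1.04), Nppb of 0.773 (0.675 to 0.883), Nppa of 0.759 (0.613 to 0.939) and Acta1 of 0.355 (0.294 to 0.427) in cardiomyocytes.

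Fibroblasts held most of the fibrillar collagen mRNA, but pericytes had the highest level of Col5a3, and Col5a2 made up most of the collagen signal of endocardial cells. A level is the sum of a gene's UMIs in a cell type, scaled to 1000000 UMIs of all genes in it. The 7 genes together were at 2203 (2164 to 2243) per 1000000 in Sham fibroblasts and 2354 (2312 to 2396) in TAC fibroblasts. Of all their UMIs, 79.1% (78.4 to 79.7) lay in fibroblasts in Sham and 78.5% (77.8 to 79.1) in TAC. A gene needed at least 50 UMIs in a library to be compared between cell types, which Col11a1 did not reach. The 6 other members were each at least 2-fold higher in fibroblasts than in all other cells together, in both libraries. This held for 17.7% of the 15259 genes compared in Sham and 16.6% of the 15875 in TAC.

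**Figure D1:**
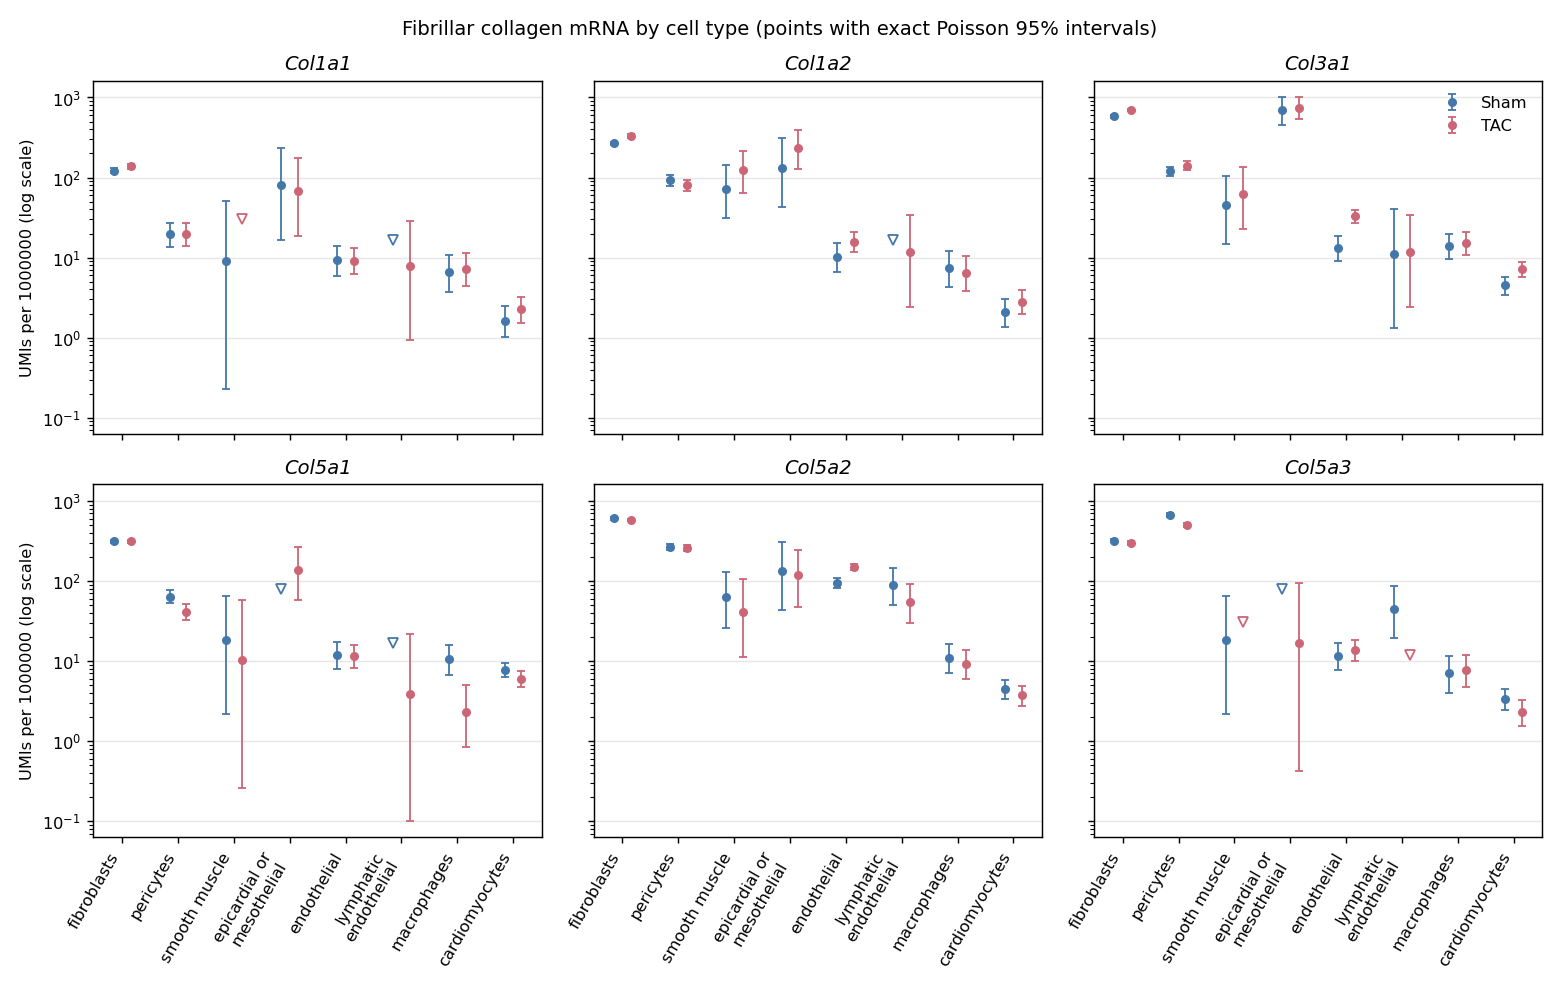
Level of the fibrillar collagen genes in UMIs per 1000000 (log axis) by cell type, with 1 point per library (Sham blue, TAC red) and exact Poisson 95% intervals; an open triangle marks a count of 0, drawn at the level of 3 counts. Fibroblasts lie above pericytes for every gene with at least 50 UMIs but Col5a3, where pericytes stand at 670.2 in Sham and 501 in TAC against 317 and 297 in fibroblasts.

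Col3a1 had the steepest difference in Sham, at 582 per 1000000 in fibroblasts against 18.5 in all other cells, a ratio of 31.5 (28.3 to 35.1). In TAC it was at 697 against 26.5, a ratio of 26.3 (24.1 to 28.8). Col1a1 was at 122 against 4.88 in Sham, a ratio of 24.9 (20.2 to 31.1), and at 138 against 5.78 in TAC, a ratio of 23.8 (19.7 to 29.1). Both genes were thus over 20-fold higher in fibroblasts, and so were Col1a2 and Col5a1, but this depended on the processing. With barcodes called as doublets kept, the Sham ratios were 18.5 for Col3a1, 15.8 for Col1a1, 14.4 for Col1a2 and 14.7 for Col5a1. In TAC, the lowest ratios over 8 alternatives were 19.5, 17.2, 17.8 and 21.04 for these genes in the same order. The ratio of Col1a2 was 21.5 (18.8 to 24.6) in Sham and 24.6 (21.7 to 27.9) in TAC, and that of Col5a1 was 22.9 (20.2 to 26.1) and 31.5 (27.3 to 36.5). Col5a2 and Col5a3 were less restricted to fibroblasts. Col5a2 had ratios of 14.9 (13.8 to 16.1) and 11.4 (10.7 to 12.3), and Col5a3 of 4.85 (4.51 to 5.21) and 6.01 (5.55 to 6.50). Of the Col5a3 UMIs, 56.4% (54.7 to 58.2) in Sham and 59.2% (57.2 to 61.1) in TAC lay in fibroblasts, and pericytes held 40.3% and 37.1%.

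Col11a1 was rare in both libraries. It had 17 UMIs in all Sham cells and 16 in all TAC cells, of which 10 lay in fibroblasts in each library, a level of 1.83 and 1.93 per 1000000. Of these fibroblast UMIs, 7 in Sham and 8 in TAC lay in the fibroblast subcluster led by Nkain2. The gene stayed below 50 UMIs in every cell type, so no ratio is read from it.

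Each cell was also thinned to 1000 UMIs, to count the share of cells with a UMI at one depth, which left out 216 Sham and 88 TAC fibroblasts with fewer. A UMI of at least 1 of the 7 genes was then found in 83.2% (81.5 to 84.8) of Sham fibroblasts and 82.4% (80.7 to 84.1) of TAC fibroblasts. The share was 64.5% (61.2 to 67.7) and 60.3% (57.1 to 63.4) of pericytes, 10.6% (8.81 to 12.5) and 15.1% (13.4 to 17.02) of endothelial cells, and 6.03% (4.67 to 7.66) and 5.32% (4.09 to 6.80) of macrophages. Cardiomyocytes had the lowest shares, at 2.94% (2.31 to 3.69) and 2.56% (1.96 to 3.27). Whether macrophages and cardiomyocytes made these mRNAs was not tested, nor was the part of free RNA in any of these shares. Without thinning, at median depths of 2151 and 2269.5 UMIs in fibroblasts and 1326 and 1661 in macrophages, the shares were 92.9% and 94.1% of fibroblasts and 8.09% and 8.30% of macrophages.

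The members differed in how many fibroblasts showed them at 1000 UMIs. Col5a2 was seen in 40.4% (38.3 to 42.6) of Sham and 36.96% (34.9 to 39.1) of TAC fibroblasts, and Col3a1 in 35.9% (33.9 to 38.04) and 39.7% (37.6 to 41.9). Col1a2 was seen in 21.7% (19.97 to 23.5) and 25.98% (24.1 to 27.9), and Col1a1 in 11.6% (10.3 to 13.05) and 11.9% (10.5 to 13.4). Of the other type V chains, Col5a1 was seen in 26.1% (24.2 to 27.998) and 25.05% (23.2 to 26.99), and Col5a3 in 24.7% (22.9 to 26.6) and 22.6% (20.8 to 24.5). The single fibroblast with the most Col3a1 UMIs held 27 of 3182 in Sham and 25 of 3609 in TAC, so that no cell decided its level.

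Fibroblasts with a Col3a1 UMI also had other members somewhat more often. At 1000 UMIs per cell, Col5a2 was seen in 44.9% (41.3 to 48.5) of the Sham fibroblasts with a Col3a1 UMI and in 37.9% (35.3 to 40.6) of those without. The TAC shares were 40.4% (36.99 to 43.9) and 34.7% (32.03 to 37.4). Col5a3 was seen in 28.02% (24.8 to 31.4) against 22.9% (20.7 to 25.2) in Sham and in 28.005% (24.9 to 31.2) against 19.02% (16.9 to 21.3) in TAC. For Col1a2 a higher share was seen in TAC, at 29.9% (26.7 to 33.2) against 23.4% (21.1 to 25.9), while the Sham shares were 21.6% (18.8 to 24.8) and 21.8% (19.6 to 24.1).

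Between the libraries, the chains of type I and type III collagen were slightly higher in TAC fibroblasts, and no chain of type V collagen was. Col1a1 was at 122 per 1000000 in Sham and 138 in TAC, a ratio of 1.13 (1.02 to 1.26). Col1a2 was at 267 and 331, a ratio of 1.24 (1.16 to 1.33). Col3a1 was at 582 and 697, a ratio of 1.20 (1.14 to 1.26). The intervals of these 3 ratios lay above 1, and those of the type V chains did not. Col5a1 was at 312 and 313, a ratio of 1.002 (0.936 to 1.07). Col5a2 was at 603 and 577, a ratio of 0.958 (0.911 to 1.01). Col5a3 was at 317 and 297, a ratio of 0.936 (0.874 to 1.003). The 7 genes together had a ratio of 1.07 (1.04 to 1.10).

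For ratios between libraries a gene needed at least 50 UMIs over both in the cell type, and 0 of the 6 members that passed were past 1.5-fold, where 15% of the 12312 genes were. The median ratio of these 6 members was 1.07. It was 1.01 over the 12292 genes with an annotated span, and the median log2 ratio of all genes compared was 0.02. When each cell had the same weight, in place of each UMI, the Col1a1 ratio was 1.01. Over all cells of a library the 7 genes had a ratio of 0.993 (0.971 to 1.02), and 0 of 6 members were past 1.5-fold, where 17.9% of genes were.

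Other measures moved with the library in the same cells. The 90 ribosomal protein mRNAs were at 1765 per 1000000 in Sham and 2552 in TAC fibroblasts, a ratio of 1.45, with 84 of 90 higher in TAC. Genes that span up to 20 kb had a median ratio of 1.08 in fibroblasts, and genes that span over 100 kb one of 0.966. Between these, the median was 0.998 for spans of 20 to 40 kb, which include Col1a2 and Col3a1. It was 0.991 for spans of 40 to 100 kb, which include Col5a3. Col1a1, Col1a2 and Col3a1 span 16819, 36731 and 38169 bp, and Col5a3, Col5a2 and Col5a1 span 45018, 128962 and 153090 bp, so the members that were higher in TAC were the shortest ones. The part of these measures in the collagen ratios was not tested.

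**Figure D2:**
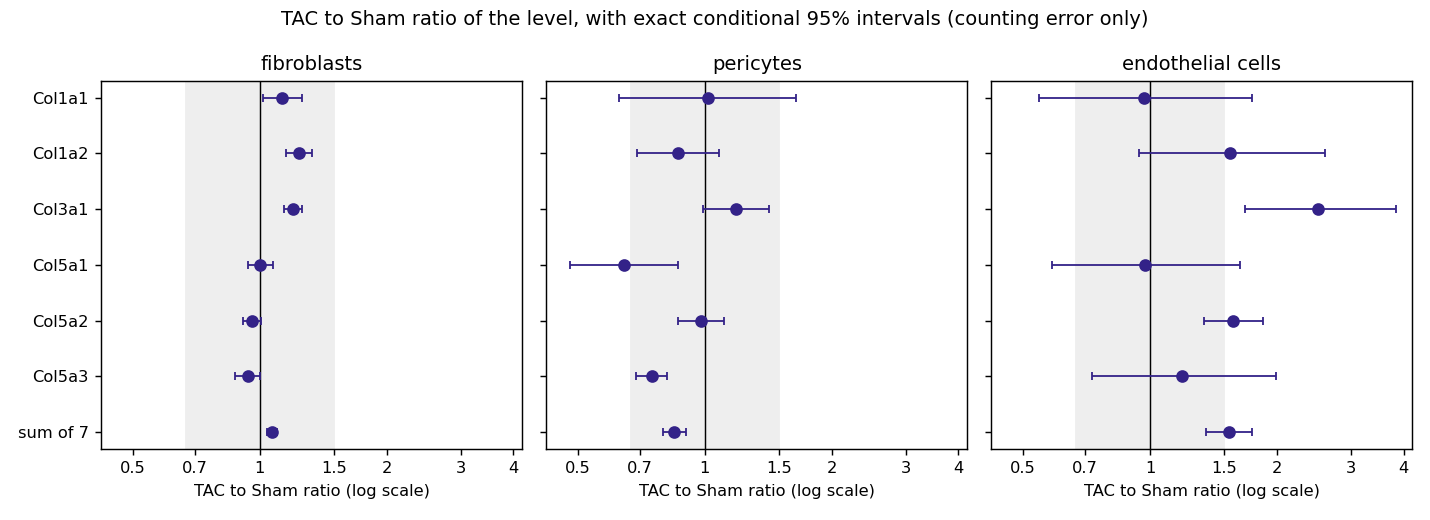
TAC to Sham ratio of each gene's level (horizontal log axis) by cell type, as points with exact conditional 95% intervals; the grey area marks ratios within 1.5-fold. In fibroblasts every point lies in the grey area, and in pericytes Col5a1 lies to its left at 0.643. In endothelial cells Col3a1 (2.51), Col5a2 (1.58), Col1a2 (1.55) and the sum (1.54) lie to its right. No direction is read there for Col3a1 or Col1a2, whose ratios fell below 1 with doublets kept.

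Among the 4 large fibroblast subclusters, the highest summed collagen level was found in the one led by Nox4 and Col8a1. The fibroblasts of both libraries were clustered together, without the collagens, into 4 large subclusters and 1 of 11 cells. Subcluster 0 (834 Sham and 390 TAC cells) was led by Nox4, Col8a1, Mical2 and Aspn and had the markers Postn, Cilp and Meox1, which are known from activated fibroblasts. It stayed unnamed because its leading genes held more markers of another fibroblast list. Subcluster 1 (285 and 554 cells) had 6 markers of the fibroblasts with Pi16 and Cd55, and subcluster 3 (668 and 574 cells) had the markers Nkain2, Fbn2 and Vit. Subcluster 2 (514 and 601 cells) had no subtype marker, was led by Adap2os, Mgp and Fap, and had the cardiomyocyte gene Myh6 among its leading genes and the lowest median depth of the 4, at 1565 UMIs.

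The summed level of the 7 genes was 2424 (2359.5 to 2490.1) per 1000000 in Sham subcluster 0 and 2918 (2818 to 3020.3) in TAC, a ratio of 1.20 (1.15 to 1.26). It was 1900.0 and 2061 in subcluster 1, a ratio of 1.08 (1.02 to 1.15). In subcluster 2 it was 2164 and 2066, a ratio of 0.955 (0.897 to 1.02), and in subcluster 3 2053 and 2445, a ratio of 1.19 (1.14 to 1.25). Subcluster 0 was thus highest of these 4 in both libraries, although not for every gene, since in Sham Col1a1 and Col5a3 were higher in subcluster 2, at 167 and 418, Col5a1 was higher in subcluster 1, at 347 against 336, and in TAC Col1a1 was higher in subcluster 3, at 156. The 11-cell subcluster was at 4474 (3548 to 5568) in its 10 Sham cells. In TAC the levels of subclusters 1 and 2 did not differ beyond their intervals. The share of fibroblasts in subcluster 0 was 36.1% (34.1 to 38.1) in Sham and 18.4% (16.8 to 20.1) in TAC, and that of subcluster 1 was 12.3% (11.02 to 13.7) and 26.1% (24.3 to 28.1). With the TAC subclusters weighted by their Sham shares, a comparison chosen after the data were seen, the ratio was 1.15 for the 7 genes, 1.31 for Col3a1, 1.34 for Col1a2, 1.18 for Col1a1 and 1.03 for Col5a1.

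Col3a1 and Col1a2 were higher in TAC in all 4 large subclusters. Col3a1 was at 662 and 876 in subcluster 0, a ratio of 1.32 (1.22 to 1.44), and at 561 and 788 in subcluster 3, a ratio of 1.40 (1.29 to 1.53). In subclusters 1 and 2 its ratio was 1.20 (1.07 to 1.36) and 1.16 (1.02 to 1.32). The ratio of Col1a2 was 1.39 (1.23 to 1.57), 1.23 (1.03 to 1.48), 1.21 (1.01 to 1.44) and 1.36 (1.20 to 1.55) in subclusters 0 to 3.

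Col1a1 did not follow that pattern. It was at 103 and 156 per 1000000 in subcluster 3, a ratio of 1.51 (1.23 to 1.85), and its ratio was 1.45 (1.10 to 1.92) in subcluster 1 and 1.15 (0.945 to 1.40) in subcluster 0. In subcluster 2 it was lower in TAC, at 167 and 112, a ratio of 0.670 (0.520 to 0.862). In subcluster 3 it was the 1 of 6 members past 1.5-fold, where 14.9% of 8077 genes were. In subclusters 0, 1 and 2 there were 0 of 6, where 15.7%, 15.4% and 16.1% of genes were. Among the type V chains, over these 4 subclusters, Col5a1 had its lowest level in subcluster 3, at 251 in Sham and 249.8 in TAC, and Col5a3 in subcluster 1, at 245 and 220.0. Col5a3 was lower in TAC in subcluster 2, with a ratio of 0.811 (0.698 to 0.943), and higher in subcluster 0, with a ratio of 1.20 (1.06 to 1.36).

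**Figure D3:**
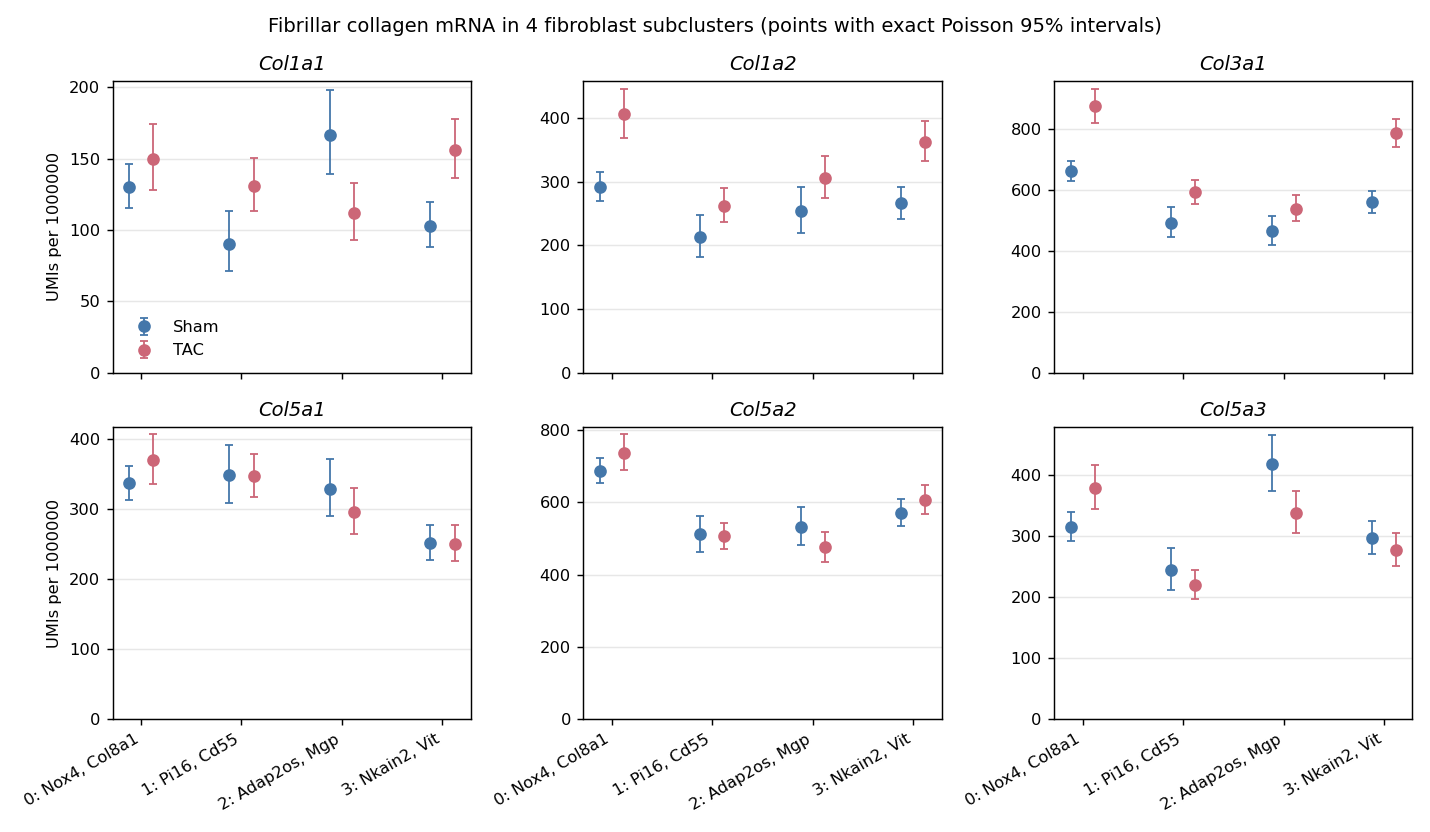
Level of the fibrillar collagen genes in UMIs per 1000000 in 4 fibroblast subclusters, with 1 point per library and exact Poisson 95% intervals. Col3a1 and Col1a2 are higher in TAC in every subcluster, and Col1a1 is lower in TAC in subcluster 2 alone.

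Pericytes, the mural cells of capillaries, had a collagen make-up of their own, led by Col5a3, which encodes the alpha-3 chain of type V collagen. Col5a3 was at 670.2 (633 to 709) per 1000000 in Sham pericytes against 317 in Sham fibroblasts, a ratio of 2.12 (1.97 to 2.28). In TAC it was at 501 (469.8 to 534) against 297, a ratio of 1.69 (1.56 to 1.83). The other 5 members with enough UMIs were lower in pericytes, at between 0.160 and 0.437 of the fibroblast level in Sham and between 0.131 and 0.446 in TAC. Against all other cells, Col5a3 had a ratio of 8.81 (8.19 to 9.47) in Sham pericytes and 7.58 (6.995 to 8.22) in TAC. It was the 1 of 6 members at least 2-fold higher there, where 10.8% of genes were in Sham and 9.73% in TAC. At 1000 UMIs it was seen in 42.4% (39.1 to 45.8) of Sham and 36.4% (33.4 to 39.6) of TAC pericytes.

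Counts of different genes cannot be read as numbers of chains, but their ratio can be compared between cell types. There were 10.5 (8.68 to 12.8) Col5a3 UMIs per Col5a1 UMI in Sham pericytes and 12.2 (9.68 to 15.5) in TAC pericytes. In fibroblasts this ratio was 1.02 (0.949 to 1.09) and 0.948 (0.884 to 1.02). Pericytes had fewer Col1a1 UMIs per Col1a2 UMI, 0.211 (0.143 to 0.303) and 0.247 (0.168 to 0.354), where fibroblasts had 0.457 (0.416 to 0.501) and 0.416 (0.381 to 0.455). Both ratios differed between pericytes and fibroblasts beyond counting error. Of the collagen UMIs in pericytes, Col5a3 made up 54.5% (52.4 to 56.6) in Sham and 48.1% (45.9 to 50.3) in TAC, compared with 14.4% and 12.6% in fibroblasts.

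**Figure D4:**
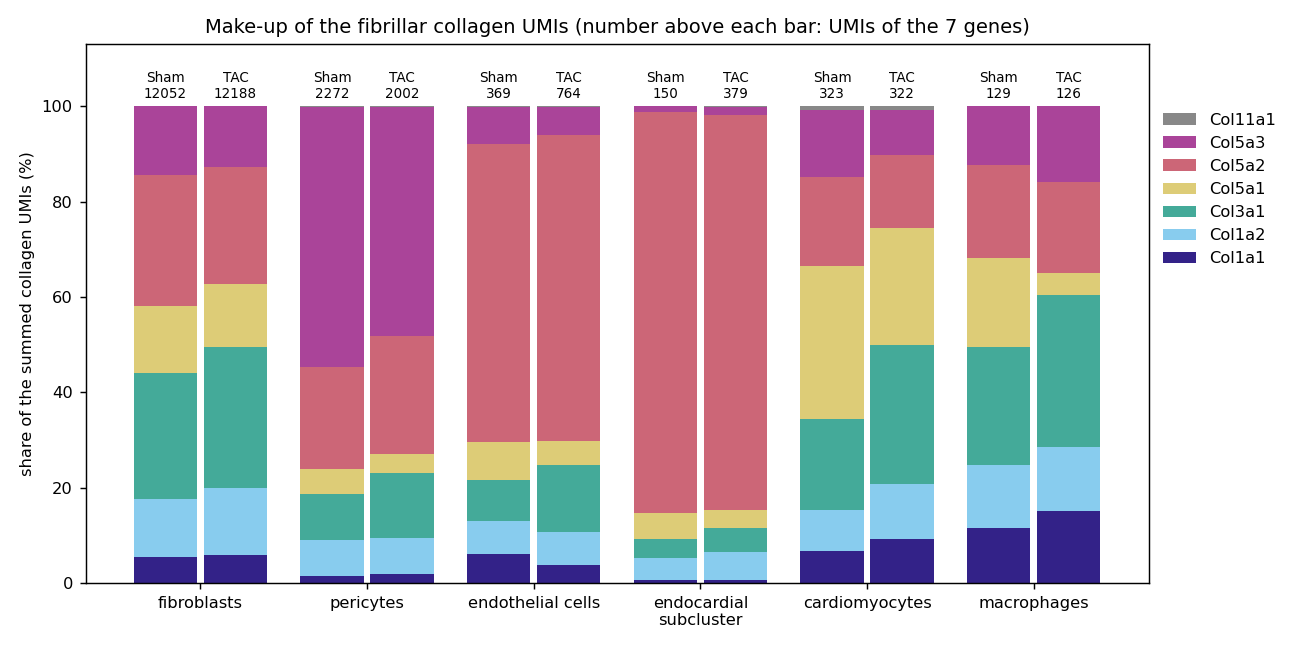
Share of each gene among the UMIs of the 7 fibrillar collagens (percent) by group of cells and library. Col5a3 makes up 54.5% in Sham pericytes, and Col5a2 makes up 82.8% in the TAC endocardial subcluster.

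In pericytes the type V chains Col5a3 and Col5a1 were lower in TAC. The ratio of Col5a3 was 0.747 (0.686 to 0.814), and that of Col5a1, from 63.9 to 41.1 per 1000000, was 0.643 (0.478 to 0.863). Col5a1 was the 1 of 6 members past 1.5-fold, where 13.9% of the 8386 genes compared in pericytes were. The intervals of the other 4 included 1. Col5a2 was at 263 and 258, a ratio of 0.979 (0.862 to 1.11), and Col3a1 at 119 and 141, a ratio of 1.18 (0.987 to 1.42). Col1a2 was at 92.6 and 80.1, a ratio of 0.865 (0.691 to 1.08), and Col1a1 at 19.5 and 19.8, a ratio of 1.01 (0.626 to 1.65). The 7 genes together were at 1230.0 and 1041, a ratio of 0.847 (0.797 to 0.900). The 8 fibroblast markers were summed at 777 in Sham and 914 in TAC pericytes, with 6 of 8 higher in TAC and none at 0. The 9 cardiomyocyte markers were at 3368 and 2457 there, with 3 of 9 higher and none at 0, and were also lower in TAC fibroblasts (a ratio of 0.731), endothelial cells (0.706) and macrophages (0.605). The mitochondrial share of pericyte UMIs was 0.637% in Sham and 0.351% in TAC, and the ribosomal protein mRNAs had a ratio of 1.21. The part of these measures in the pericyte ratios was not tested.

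Smooth muscle cells, the other mural cells, were few. Their 25 Sham and 23 TAC collagen UMIs gave 226 (146 to 334) and 236 (149 to 354) per 1000000, and Col1a2 led with 8 and 12 UMIs. Col5a3 had 2 Sham UMIs and 0 TAC UMIs, which at 3 counts allows up to 30.7 per 1000000 in TAC, below the pericyte level. No member reached 50 UMIs there, so no ratio between the libraries was read.

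In endothelial cells the leading member was Col5a2, which encodes the alpha-2 chain of type V collagen. The endocardial subcluster held the largest part of its UMIs. Col5a2 was at 94.5 (82.7 to 107) per 1000000 in Sham endothelial cells and 149 (136 to 163) in TAC. This was 8.61 (5.69 to 13.6) and 16.2 (10.8 to 25.6) times the level in macrophages. At 1000 UMIs per cell it was seen in 6.65% (5.25 to 8.29) of Sham and 9.90% (8.45 to 11.5) of TAC endothelial cells, against 1.05% (0.527 to 1.88) and 1.06% (0.551 to 1.85) of macrophages. There were 7.97 (5.40 to 12.2) Col5a2 UMIs per Col5a1 UMI in Sham endothelial cells and 12.9 (9.26 to 18.4) in TAC, where fibroblasts had 1.93 (1.82 to 2.05) and 1.84 (1.74 to 1.96). Both the level and this ratio thus differed beyond counting error from those of macrophages and of fibroblasts, respectively. Against all other cells, 0 of 6 members were at least 2-fold higher in endothelial cells, where 14.6% of genes were in Sham and 14.1% in TAC.

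The endocardium lines the chambers of the heart, and 1 endothelial subcluster had the endocardial markers Npr3, Cytl1, Plvap, Tmem108 and Smoc1. Its 191 Sham cells had Col5a2 at 376 per 1000000 against 49.7 in the other endothelial cells, a ratio of 7.56 (5.79 to 9.89). Its 301 TAC cells had 476 against 66.9, a ratio of 7.11 (5.90 to 8.60). These cells held 54.5% (47.9 to 61.1) and 64.1% (59.7 to 68.3) of the endothelial Col5a2 UMIs. Capillary endothelial cells, with 724 and 834 cells, were at 17.8 (10.4 to 28.5) and 15.8 (9.35 to 24.9), close to the 10.97 and 9.18 of macrophages. Between the libraries, Col5a2 in the endocardial subcluster had a ratio of 1.27 (1.03 to 1.57), and 0 of the 1 member that passed were past 1.5-fold, where 17.6% of genes were. The 8 fibroblast markers were summed at 567 in Sham and 705 in TAC endocardial cells, the highest of the 4 large endothelial subclusters in both libraries, with 6 and 7 of 8 above 0, and their part in the Col5a2 values was not tested.

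Over all endothelial cells, 3 of the 6 members that passed were past 1.5-fold in TAC, where 15.2% of the 10187 genes were. Col5a2 had a ratio of 1.58 (1.35 to 1.85), and of 1.27 when each cell had the same weight. Within the large subclusters its ratio was 1.34 (0.868 to 2.08) and 1.41 (0.996 to 2.03) in the unnamed ones and 1.27 in the endocardial one. Capillary cells had 17 and 18 Col5a2 UMIs, below the minimum. The endocardial subcluster held 191 of 1917 Sham and 301 of 2278 TAC endothelial cells. The part of this mix in the Col5a2 ratio was not tested. Col3a1 over all endothelial cells was at 13.1 (32 UMIs) and 32.8 (108 UMIs), a ratio of 2.51 (1.68 to 3.85). Col1a2 was at 10.2 (25 UMIs) and 15.8 (52 UMIs), a ratio of 1.55 (0.942 to 2.60). These counts were low, and in TAC they lay in 88 cells for Col3a1 and 48 for Col1a2. Without a subcluster of 13 TAC cells led by Cadm2, Csmd1 and Cdh19, which held 18 of the Col3a1 UMIs, the ratio was 2.11 (1.39 to 3.26) for Col3a1 and 1.47 (0.889 to 2.48) for Col1a2, and 2 of 6 members were past 1.5-fold, where 14.5% of genes were.

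The Col3a1 and Col1a2 ratios of endothelial cells turned around when doublets were kept. With barcodes called as doublets left in, the ratio was 0.669 (0.508 to 0.879) for Col3a1 and 0.722 (0.495 to 1.05) for Col1a2. In that setting 150 such barcodes were among the Sham endothelial cells and held 85 Col3a1 UMIs, and 39 were among the TAC ones and held 10. Col5a2 was then at a ratio of 1.33 (1.16 to 1.52). The 8 fibroblast markers were summed at 393 per 1000000 in Sham and 485 in TAC endothelial cells, with 4 of 8 higher in TAC and Tcf21 at 0 in TAC. At 1000 UMIs, Col3a1 was seen in 0.820% (0.375 to 1.55) of Sham endothelial cells and 1.25% (0.665 to 2.12) of Sham macrophages, and in 2.59% (1.85 to 3.51) and 1.60% (0.949 to 2.51) in TAC. No direction is read for Col3a1 or Col1a2 in endothelial cells.

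Lymphatic endothelial cells had 26 Sham and 23 TAC collagen UMIs, of which 16 and 14 were of Col5a2, at 88.5 (50.6 to 144) and 54.8 (29.9 to 91.9) per 1000000. All 8 Col5a3 UMIs lay in Sham cells, and the count of 0 in TAC allows up to 11.7. In the epicardial or mesothelial cells, which cover the heart, Col3a1 was the leading member, with 26 UMIs in 17 Sham cells and 44 in 25 TAC cells. Its level of 690.4 (451 to 1012) and 745 (541 to 999.6) did not differ from that of fibroblasts beyond the counting intervals. There were 0.192 (0.0577 to 0.509) Col5a2 UMIs per Col3a1 UMI in Sham and 0.159 (0.0605 to 0.356) in TAC, while fibroblasts had 1.04 (0.986 to 1.09) and 0.828 (0.788 to 0.869). Col3a1 was the 1 member that passed there, and 0 were past 1.5-fold, where 29.2% of genes were.

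Cardiomyocytes and macrophages had the lowest levels. The 7 genes together were at 23.9 and 24.5 per 1000000 in cardiomyocytes and at 56.6 and 48.2 in macrophages. Col3a1 was at 4.52 and 7.16 in cardiomyocytes, a ratio of 1.59 (1.14 to 2.23), the 1 of 6 members past 1.5-fold, where 19.6% of genes were. The 8 fibroblast markers were summed at 81.04 and 104 in the same cells, a ratio of 1.29, with 5 of 8 higher in TAC and none at 0, and their part in the Col3a1 ratio was not tested. Col5a1 made up 32.2% (27.1 to 37.6) of the collagen UMIs of cardiomyocytes in Sham and 24.5% (19.9 to 29.6) in TAC, above its share of 14.2% and 13.3% in fibroblasts. In macrophages, Col3a1 was the 1 member that passed, at 14.04 and 15.3, and 0 were past 1.5-fold, where 18.4% of genes were. Col5a1 had 24 Sham and 6 TAC UMIs in macrophages, below the minimum.

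The order of the 5 largest cell types was not the same for all members. For Col5a2 it was fibroblasts, pericytes, endothelial cells, macrophages and cardiomyocytes in both libraries, with no overlap between the intervals of neighbours. For Col5a3 it was pericytes, fibroblasts, endothelial cells, macrophages and cardiomyocytes, with overlapping intervals of endothelial cells and macrophages in both libraries and of macrophages and cardiomyocytes in Sham. For Col1a1, Col1a2, Col3a1 and Col5a1, fibroblasts were highest and pericytes followed, although the Sham intervals of Col1a1 in pericytes and endothelial cells overlapped, at 19.5 and 9.40. Endothelial cells and macrophages did not differ beyond their intervals for Col1a1 in either library, nor for Col1a2, Col3a1 and Col5a1 in Sham.

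Levels were also compared across 7 named cell types in both libraries, 14 points in all, over 13443 genes, as Pearson correlations of log2(level + 1). The points share their libraries and the rarer types have low counts, so the values are descriptions. The pattern of the 7 summed genes was most like that of Col6a2 (0.970), Cyth3 (0.959), Adamts12 (0.958), Mrc2 (0.957) and Gli2 (0.955), followed by Pcolce, Carmil1, Ccdc80, Gm32618 and Dnm3os. The nearest genes were Oaf, Gstt1 and Kcnk2 for Col1a1, Glipr2, 4930438E09Rik and Dzip1 for Col1a2, and Pcolce, Col6a2 and Gm32618 for Col3a1. For the type V chains they were Mmp16, Arhgap24 and Enox1 for Col5a1, Nid1, Il1r1 and Fbn1 for Col5a2, and Jade1, Mapk8ip1 and Shc2 for Col5a3. Apart from Col11a1, Col1a2 and Col3a1 were the most alike of the members (0.913) and Col1a2 and Col5a3 the least (0.502). The nearest genes of Col11a1 (Il17d, Prcd and Nr1h4) rest on its few UMIs and are not read further.

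Genes that help to make collagen fibrils differed in both directions between the libraries in fibroblasts. Of 19 genes that modify and fold the chains, 18 passed the minimum, 3 were past 1.5-fold higher in TAC and 1 lower, where 10.5% and 4.48% of all genes were, and the median ratio was 1.10. Serpinh1, the collagen chaperone HSP47, was at 33.3 and 58.5 per 1000000, a ratio of 1.76 (1.46 to 2.13). Ppib, a prolyl isomerase, had a ratio of 1.71 (1.41 to 2.08) and Fkbp14, another one, of 1.56 (1.01 to 2.42). Colgalt1, which adds galactose to hydroxylysine, was the lower one, at 46.1 and 30.7, a ratio of 0.666 (0.543 to 0.816). The genes with the most UMIs lay within 1.5-fold. The lysyl hydroxylase Plod2 had a ratio of 0.901, Colgalt2 of 0.974, the prolyl hydroxylase subunit P4ha1 of 1.10, and Mia3, which helps to export collagen from the endoplasmic reticulum, of 0.866.

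Of 8 genes for propeptide removal, 7 passed, with 1 past 1.5-fold higher, Tll2, a tolloid-like protease, at 2.05 (1.73 to 2.45), and 1 lower, Adamts3, at 0.546 (0.474 to 0.629). Again 10.5% and 4.48% of all genes were past it in these directions. Adamts2, a procollagen N-proteinase, had a ratio of 1.22 (1.14 to 1.30), the enhancers Pcolce and Pcolce2 of 1.28 and 0.997, and the C-proteinase Bmp1 of 0.805, and the median ratio was 0.997. Of 5 cross-linking genes, 4 passed, 0 were past 1.5-fold higher, where 10.5% and 4.48% of all genes were higher and lower, and Loxl3 was the 1 lower, at 0.625 (0.526 to 0.740). Loxl1, the lysyl oxidase gene with the most UMIs, was at 238 and 345, a ratio of 1.45 (1.35 to 1.56), and Lox and Loxl2 had ratios of 1.11 (0.803 to 1.54) and 1.17 (0.886 to 1.56), with a median of 1.14 over the list.

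Of 11 fibril-associated proteins, 10 passed, 2 were past 1.5-fold higher and 1 lower, beside 10.5% and 4.48% of all genes. Sparc, a collagen-binding matrix protein, had a ratio of 1.73 (1.57 to 1.91) and the proteoglycan Bgn of 1.58 (1.45 to 1.73). Aspn, a related small proteoglycan and a leading gene of subcluster 0, had a ratio of 0.490 (0.434 to 0.551). Tnxb, which encodes tenascin-X, had a ratio of 1.19 and Ogn of 0.738, and the median was 1.01. Of 9 collagen receptor genes, 8 passed and 1 was past 1.5-fold higher, near the 10.5% of all genes. This was Itga2, an integrin chain with 43 and 67 UMIs, at 1.65 (1.11 to 2.47). Ddr2, the collagen-sensing receptor kinase of fibroblasts, had a ratio of 1.28 (1.22 to 1.35), Itgb1 of 1.19, the uptake receptor Mrc2 of 1.07 and Itga11 of 0.882, and the median was 1.24. The part of the ribosomal protein difference in these ratios was not tested.

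Of the 4 other fibrillar collagen genes, Col27a1 alone passed, at 76.4 and 85.2 per 1000000 in fibroblasts, a ratio of 1.11 (0.973 to 1.28). Col24a1 had 21 and 17 UMIs there, Col11a2 10 and 8, and Col2a1 2 and 2. In pericytes, 15 of the 19 chain modification genes passed, with 1 higher and 1 lower past 1.5-fold, where 7.2% and 6.67% of all genes were. In endothelial cells, 15 passed, with 1 higher and 1 lower, where 9.41% and 5.77% were.

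**Figure D5:**
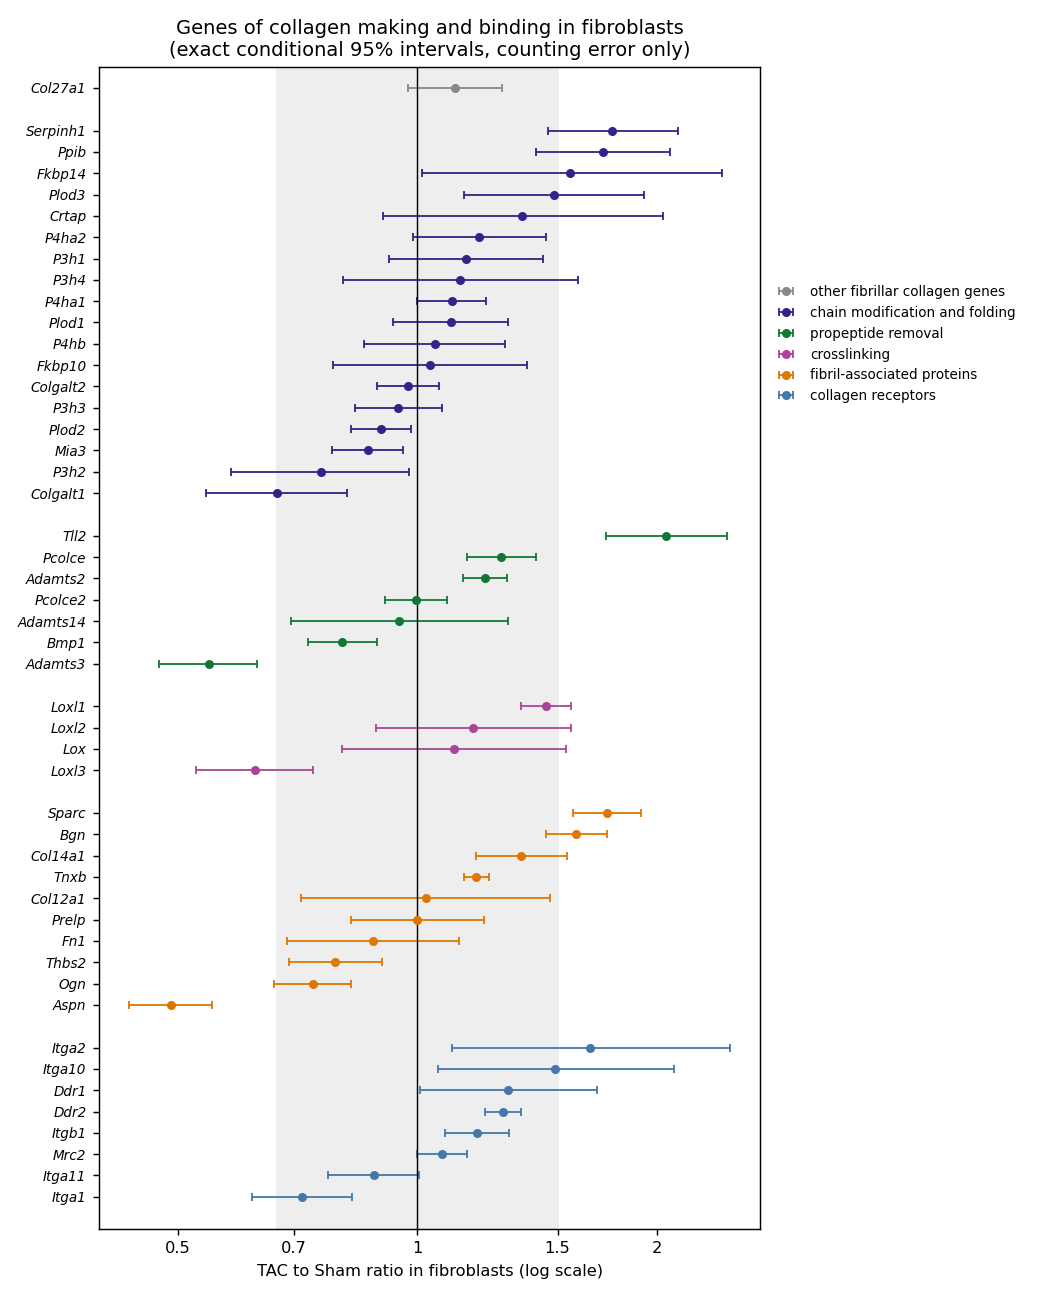
TAC to Sham ratio in fibroblasts (horizontal log axis) of genes that help to make or bind collagen fibrils, by list, as points with exact conditional 95% intervals; the grey area marks ratios within 1.5-fold. Serpinh1, Ppib, Sparc, Bgn and Tll2 lie to its right, and Aspn, Adamts3 and Loxl3 to its left.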

How the data were processed

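The authors' deposited matrices hold raw UMI counts per gene and cell for 1 Sham and 1 TAC library, which per the labels were made with Cell Ranger 7.1.0 and the V3 kit, while the study's methods name another Cell Ranger version and kit. The genome build and whether intronic reads were counted are not given in the sources used here. Of 55357 gene IDs, 52081 matched GENCODE M21, which was used for positions only.

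Each library was processed by itself in scanpy 1.11.5 (Python 3.11.15, numpy 2.4.6, scipy 1.17.1). Barcodes with fewer than 200 genes and those that Scrublet called as doublets, at an expected 0.8% per 1000 barcodes, were removed (459 in Sham and 479 in TAC). Cells were clustered by Leiden at resolution 1 on 2000 variable genes, 30 principal components and 15 neighbours, without the 7 collagens and the listed pathway genes. A cluster was named when at least 3 markers of a type were seen in 10% of its cells at a log2 fold of 1 or more, and left unnamed when its 10 leading genes held as many or more markers of another type, a condition set after clusters had been seen. Fibroblasts and endothelial cells of both libraries were subclustered together at resolution 0.5.

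UMIs were summed per type and library and given per 1000000, with exact Poisson intervals for levels, conditional binomial intervals for ratios and Clopper-Pearson intervals for shares, all at 95% and for counting error only. A count of 0 is given a limit of 3 counts. No test was made, since cells are not replicates. Past 1.5-fold was read only for genes with at least 50 UMIs over both libraries, and 2-fold between types for genes with at least 50 in the library. The ratios, the 1.5-fold calls and the intervals of the ratios were checked on simulated counts. All 7 members are named. Of each other list, the 4 genes with the most UMIs in fibroblasts and those past 1.5-fold are named. The 5 cardiomyocyte genes are all named. Nearest genes are the 10 highest correlations for the sum and the 3 highest for each member, among genes with at least 200 UMIs, over types with at least 30 cells. The members and lists were chosen with earlier results of these data known. Alternatives were other filters on cells (500 genes, 25% mitochondrial UMIs), doublets kept, other resolutions, joint clustering, other scales and other thinning depths. Leaving out the subclusters of 11 and 13 cells and weighting by the Sham mix were chosen after seeing the data.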

Additional observations from a re-analysis of the deposited data

Results flagged for a closer look

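The TAC to Sham ratio of the 7 summed genes lay on opposite sides of 1 in cell types of the same libraries. It was 1.07 in fibroblasts and 0.847 in pericytes, and these differences in direction were not tested, since there was 1 library per condition. It was 1.54 in endothelial cells, where Col5a2 held 62.6% of the collagen UMIs in Sham, and 0.847 in pericytes, where Col5a3 held 54.5%. That difference was not tested either. Without the 13-cell TAC subcluster the endothelial ratio was 1.45, and within the 4 large endothelial subclusters it was 0.850 in capillary cells, 1.40 and 1.43 in the unnamed ones and 1.28 in endocardial cells. The sum includes Col3a1 and Col1a2, whose endothelial direction is not read.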

How the results depend on the processing

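The TAC to Sham ratio of the 7 summed genes in fibroblasts ran from 1.05 to 1.15 over 12 alternatives and was 1.15 at the Sham mix of subclusters. In pericytes it ran from 0.807 to 0.851 over 10 alternatives. With no doublets removed, the fibroblast level of the summed genes against all other cells was 10.7 times in Sham and 12.3 times in TAC, compared with 14.2 and 15.1, and with at most 25% mitochondrial UMIs it was 14.4 times in TAC. The share of fibroblasts with a UMI of any member followed the thinning depth by construction, at 60.8% in Sham and 62.3% in TAC for 500 UMIs and 95.7% and 94.4% for 2000. In fibroblasts, the Col5a2 and Col5a3 ratios stood above 1 at the Sham mix (1.04 and 1.01). The endothelial ratios of Col1a2 and Col3a1 reversed, to 0.722 and 0.669 with no doublets removed. In that setting the called doublets among endothelial cells held 85 Col3a1 UMIs in Sham and 10 in TAC. Unnamed clusters went the other way, with 62 called doublets and 82 Col3a1 UMIs in Sham, and 205 and 173 in TAC. No paired analysis was possible because there was 1 library per condition. Depth limits smooth muscle, lymphatic and epicardial cells, with under 100 collagen UMIs in each library, and Col11a1 throughout.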

Other observations

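Collagen levels were also high in 2 very small subclusters. The 11-cell fibroblast subcluster led by Cadm2, Slc35f1 and Ptprz1 (10 Sham cells and 1 TAC cell) had the 7 genes at 4474 (3548 to 5568) per 1000000 in Sham, from 80 UMIs, with Col3a1 at 1734 (1178 to 2461). The 6 Schwann cell markers, of which 4 had a UMI, were summed at 8333 in these Sham cells, against 159 to 249 in the other Sham fibroblast subclusters. The 13-cell endothelial subcluster held TAC cells alone, but cell types were named in each library by itself. It shared the leading genes Cadm2, Slc35f1, Chl1 and Pex5l with the 11-cell fibroblast subcluster. Whether both hold the same kind of cell was not tested. The endothelial one had the 7 genes at 1913 (1410.3 to 2536) and Col3a1 at 717 (425 to 1134). Its Schwann cell markers were at 6137, and 5 of 6 had a UMI. Fibroblast markers were at 2749.7 there, and their part in the collagen level was not tested. Neither subcluster was given a name, since fewer than 3 markers of a fibroblast or endothelial subtype were found in it. Schwann cells were not among the subtypes that could be named at this step.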
